A study of Mus musculus with 504 samples.

Results

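P17 and P18 are sorted populations of mammary tumour cells that had kept the red colour of their lineage reporter, compared here in the Tnc-CreERT2 line. The members are the P17 and P18 libraries of that line which the deposited labels mark as having passed quality control. P17 gave 11 such libraries from 3 animals (37 of its 48 failed) and P18 gave 55 from 5 animals (5 of its 60 failed), out of 335 libraries that passed among 504 wells of the whole series. The series also holds a Cdh2 line, whose animals entered only the joint fits. Every animal of the Tnc-CreERT2 line carried Tnc-CreERT2 and MMTV-Flpo with the reporter RC::FrePe and the transgene MMTV-PyMT. Tamoxifen doses of 2 mg were given 2 times weekly, starting in week 9, up to the removal of the tumours in week 13 or 14. The polyoma middle T oncogene drives the tumours, Flp recombinase in mammary cells turns on mCherry, and Cre under the control of Tnc switches a cell for good to GFP. P17 and P18 were both sorted as negative for GFP and high for the epithelial surface protein EpCAM. The series description gives P17 as mCherry-positive and P18 as mCherry-high, whereas the label of each library reads high for mCherry in both. The source label speaks of cell lines, and the growth protocol of cells sorted straight from tumours. Each library is a pool of 5 cells made with Smart-seq2, a protocol for whole polyadenylated transcripts that has no molecular identifiers. A level in a pool therefore mixes how many of its 5 cells carried a transcript and how much each carried, and fewer cells of a kind and less RNA per cell cannot be told apart.

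A dividing cell passes from G1, when cyclin D with CDK4 and CDK6 loosens the hold of the retinoblastoma protein on E2F factors, into S phase, when DNA is copied by the MCM helicase, the PCNA clamp and the nucleotide supply of ribonucleotide reductase. In G2 and mitosis cyclins A and B drive CDK1, topoisomerase II alpha untangles the chromosomes, and kinesins and checkpoint kinases build and watch the spindle. Transcripts of S phase are largely under E2F sites, and those of G2 and mitosis under the cell cycle homology region (CHR), often with CCAAT boxes, so that resting cells hold little of either. CDK inhibitors such as p21 and the targets of p53 hold the cycle back.

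The promoters of 4 of the cell cycle genes named below are shown because they hold these elements. The sequences are from RefSeq (GRCm38.p6), 250 bases before to 50 after the annotated start, 5′ to 3′ on the strand of the gene: Cdk1 at chr10:69352863-69353162, Top2a at chr11:99024140-99024439 and Mki67 at chr7:135716330-135716629, all on the minus strand, and Mcm5 at chr8:75109259-75109558 on the plus strand. Capitals mark the CHR letters TTTGAA, the CCAAT box, and the E2F letters TTTCCCGC, TTTGGCGC, TTTCGCGC or TTTGCCGC, each on either strand, and in Mcm5 E2F matches on opposite strands overlap. The 4 genes were chosen after their values were seen. The promoters of Ccnb1 and Pcna were searched too and are not printed. They held 2 and 1 CCAAT boxes, and neither held the CHR or E2F letters.
Cdk1: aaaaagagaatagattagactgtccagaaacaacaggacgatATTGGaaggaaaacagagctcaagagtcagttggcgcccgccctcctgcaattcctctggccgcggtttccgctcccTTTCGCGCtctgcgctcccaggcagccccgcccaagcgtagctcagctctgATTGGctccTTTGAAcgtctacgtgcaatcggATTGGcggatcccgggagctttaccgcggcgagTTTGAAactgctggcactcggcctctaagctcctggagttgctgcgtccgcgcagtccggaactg
Top2a: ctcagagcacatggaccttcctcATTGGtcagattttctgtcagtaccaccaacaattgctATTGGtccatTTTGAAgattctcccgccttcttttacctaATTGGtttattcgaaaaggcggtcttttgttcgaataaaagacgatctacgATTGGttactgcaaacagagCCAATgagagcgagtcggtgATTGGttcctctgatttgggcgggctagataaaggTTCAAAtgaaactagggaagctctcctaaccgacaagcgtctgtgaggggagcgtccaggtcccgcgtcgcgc
Mki67: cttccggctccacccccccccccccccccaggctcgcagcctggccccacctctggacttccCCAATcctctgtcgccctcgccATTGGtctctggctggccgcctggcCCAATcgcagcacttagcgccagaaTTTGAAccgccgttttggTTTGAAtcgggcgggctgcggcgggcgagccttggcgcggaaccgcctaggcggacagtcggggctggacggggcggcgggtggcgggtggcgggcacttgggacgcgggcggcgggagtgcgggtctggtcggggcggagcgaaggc
Mcm5: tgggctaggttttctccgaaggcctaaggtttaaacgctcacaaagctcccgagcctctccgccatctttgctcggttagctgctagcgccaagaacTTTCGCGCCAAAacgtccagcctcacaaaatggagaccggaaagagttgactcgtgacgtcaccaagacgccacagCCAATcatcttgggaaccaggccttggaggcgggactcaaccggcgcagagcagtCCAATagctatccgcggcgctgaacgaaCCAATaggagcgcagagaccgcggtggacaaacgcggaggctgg

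Among the genes of the mitosis and G2/M list that have such a window, the CHR letters stood in 43 of 65 windows (66.2%), against 17.9% of all 32851 windows. In the S phase list they stood in 8 of 45 (17.8%). The E2F letters stood in 31.1% of S phase windows and in 4.62% of mitosis and G2/M windows, against 2.26% of all windows. CCAAT stood in 72.3% of mitosis and G2/M windows and in 55.6% of S phase windows, against 37.4% of all. A match is a description of the letters in the window and not a bound site.

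The 11 P17 libraries were more uneven than the 55 P18 libraries. P17 libraries held 329160 to 11219091 counts (median 5066005) and P18 libraries 3232190 to 13414012 (median 5878479), with 3453 to 14243 and 10018 to 15936 genes detected. Mitochondrially encoded genes took 3.40 to 9.24% of counts in P17 libraries and 1.12 to 5.98% in P18 libraries. Library R2 of TENA2524, the shallowest, stood apart: it had 0 counts of Epcam, 21.3 CPM of Krt8 and 1817 CPM of Vim (counts per 1000000 counts of the library), with 6113 CPM of Apoe, a lipid carrier that macrophages secrete. Library R3 of TENA2524 also stood apart, with 267166 CPM of Mucl2, a mucin-like secreted protein, and 35363 CPM of Prol1. Library R1 gave 66.9% of the P17 counts of TENA2524 and R2 gave 1.96%. The animal was the replicate, so counts were summed per animal and population, and the 3 animals with P17 (TENA2517, TENA2524 and TENA2560) also gave P18, on the same sequencing lane within an animal.

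Both populations carried the epithelial transcripts of their gate. Epcam had 3204, 673 and 3866 CPM in the P17 sums of TENA2517, TENA2524 and TENA2560, against 4395, 4235, 4531, 3421 and 6275 CPM in the P18 sums of TENA2462, TENA2483, TENA2517, TENA2524 and TENA2560 (CPM of a sum is after TMM scaling, and all values of sums below keep this order of animals). P17 of TENA2560 lay within the P18 range and the other P17 sums below it. Epcam and the keratin gene Krt8 both reached 10 CPM in 10 of 11 P17 pools and in 55 of 55 P18 pools. Ptprc (CD45), the mark of leukocytes, reached it in 0 of 11 P17 pools and 0 of 55 P18 pools. Pools below this level may still hold RNA of leukocytes. R2 of TENA2524 had 0 CPM of Ptprc, with 687 and 112 CPM of the macrophage markers Ms4a7 and Adgre1.

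No gene passed the test between P17 and P18. edgeR's quasi-likelihood test was fitted jointly over all populations of the Tnc and Cdh2 lines, with the animal as a block. In this test 0 of 33768 genes had a Benjamini-Hochberg adjusted p below 0.05 (0.0% called), and the smallest adjusted p was 0.905. At an unadjusted p below 0.05 there were 1695 genes (5.02%), 402 higher (1.19%) and 1293 lower (3.83%). Other tools gave other counts on the same sums: DESeq2 called 256 higher and 1657 lower, and limma-voom 3 higher and 108 lower. The median fitted log2 fold change of all genes was -0.40, and 36.2% of genes were fitted above 0. The values below are therefore read as levels and as fitted folds with errors derived from the test statistic, beside these shares of all genes. All genes here include those scarce in both populations, since with the filter on P17 and P18 sums alone 18480 genes were tested. A gene without counts in both can be neither higher nor lower. Shares of all genes that lay apart, or moved 1 way in all animals, would thus be larger without such genes.

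Transcripts of the cell cycle stood higher in P17 in most fitted values, with none called by edgeR. All 128 members of the S phase and the mitosis and G2/M lists were tested, 118 had a fitted log2 fold change above 0, 21 were higher and 0 lower at an unadjusted p below 0.05, and 0 were called. DESeq2 called 13 of them higher and 0 lower, where it called 256 higher and 1657 lower among all 33768 genes. Its calls include fits on few counts, such as Ttk of the mitosis list at a log2 fold change of 22.6. In 28 of the 128 all 3 P17 sums lay above all 5 P18 sums, as did 1.36% of all genes. The medians were 2.04 for S phase and 2.52 for mitosis and G2/M, the same with genes at 0 counts placed at their bound. They stood above 0 in each of 33 other settings, from 1.16 (without R1 of TENA2524) to 2.69 for S phase and from 1.30 (without TENA2517) to 3.09 for mitosis and G2/M.

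**Figure D1:**
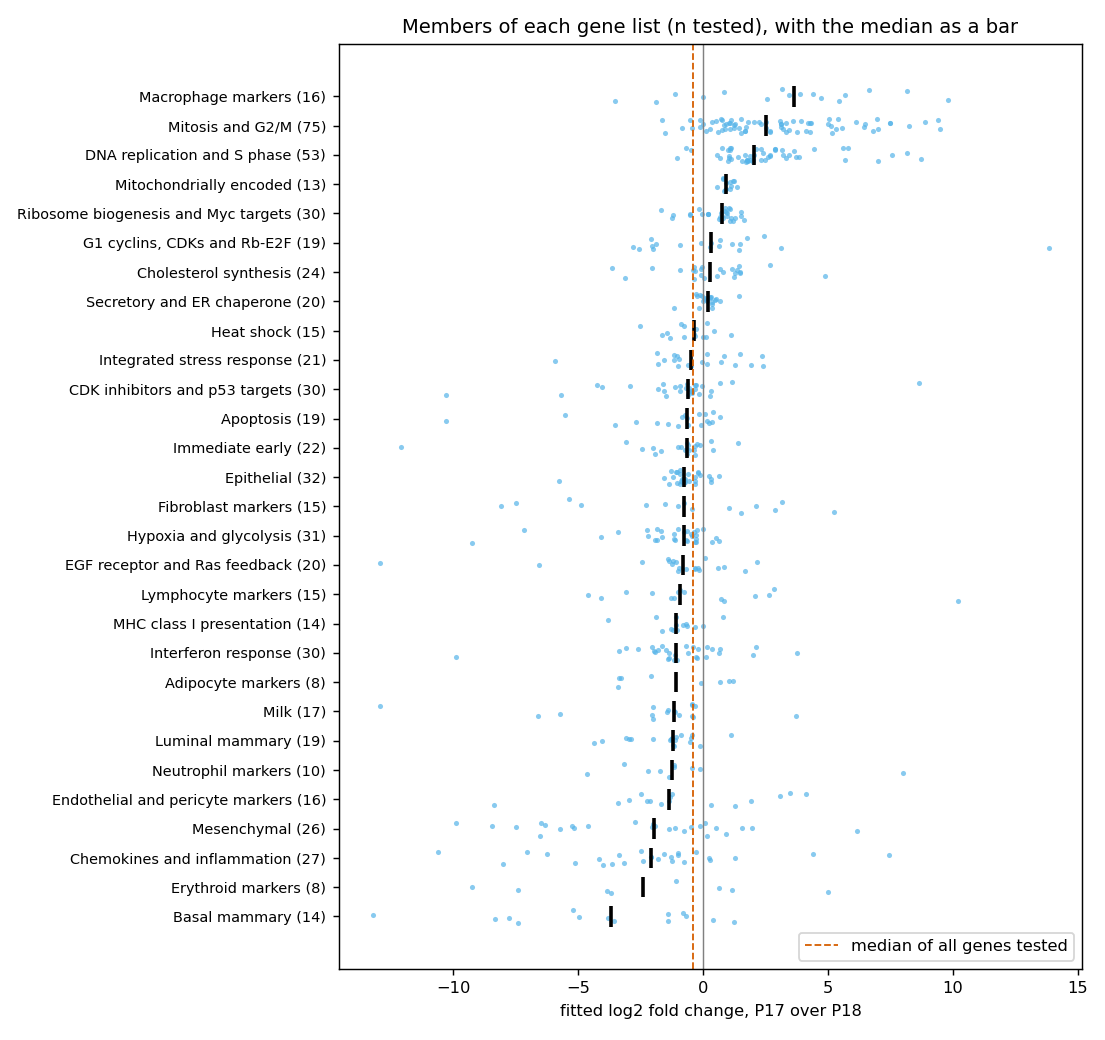
Fitted log2 fold change of P17 over P18 for every tested member of each gene list (points), sorted by the list median, with a dashed line at the median of all genes tested. The mitosis and G2/M list has its median at 2.52 and the S phase list at 2.04, while 21 of the 29 lists have a median below 0.

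At the entry into the cycle the populations overlapped. Ccnd1, cyclin D1, had 98.4, 24.9 and 130 CPM in P17 sums and 59.3, 77.8, 108, 70.4 and 96.5 CPM in P18 sums. Its fitted log2 fold change was -0.08 ± 1.10 (SE, derived from the test statistic). Ccne2, cyclin E2, had 6.05, 6.28 and 0.422 CPM in P17 and 0.663, 1.31, 0.533, 0.847 and 0.511 CPM in P18 (2.60 ± 1.89), with P17 of TENA2560 below every P18 sum. Of 19 G1 cyclins, CDKs and genes of the Rb and E2F families, 11 were fitted higher and 8 lower (median 0.32), and 1 was higher at an unadjusted p below 0.05. That gene was E2f7, an E2F family repressor induced in S phase, with 450 counts in P17 and 1 in P18. All but a few of the P17 counts of E2f7 came from TENA2524 (0.265, 31.5 and 0 CPM), and the log2 ratio of pooled counts was 11.46 (95% exact interval 8.98 to 16.77, counting error only). Rb1, the retinoblastoma gene, had 9.16, 4.43 and 5.02 CPM in P17 and 12.4, 18.1, 16.1, 9.13 and 19.5 CPM in P18 (-1.88 ± 0.97), with P17 of TENA2517 just inside the P18 range. Myc had 54.0, 0.285 and 47.7 CPM in P17 and 160, 138, 149, 102 and 134 CPM in P18 (-2.01 ± 1.20), so that all P17 sums lay below all P18 sums, as did 7.31% of all genes.

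Genes of DNA replication were high in P17 of TENA2517 and TENA2524 and nearer to P18 in TENA2560. Rrm2, the regulated subunit of ribonucleotide reductase, had 238, 416 and 0.759 CPM in P17 sums and 2.56, 7.48, 4.69, 10.3 and 3.75 CPM in P18 sums (5.80 ± 2.30, edgeR adjusted p = 0.905). Its P17 value in TENA2560 lay below every P18 sum. Mcm5, a subunit of the MCM helicase, had 32.6, 166 and 16.1 CPM in P17 and 0, 6.06, 3.43, 7.21 and 3.22 CPM in P18 (3.85 ± 2.08). Its groups did not overlap, and P17 of TENA2524 stood far above the other P17 sums. Pcna, the sliding clamp, had 69.9, 126 and 39.3 CPM in P17 and 37.9, 35.0, 36.4, 35.2 and 37.9 CPM in P18 (1.05 ± 1.02). The P18 sums of Pcna were close together, and the lowest P17 sum lay just above them. Without library R1 of TENA2524 the fitted value of Pcna was 0.0808. Exo1, an exonuclease of DNA repair, had 22.1, 9.49 and 0.0422 CPM in P17 and 0, 0.0208, 0, 0.230 and 0 CPM in P18 (7.56 ± 2.60, edgeR adjusted p = 0.905). Ccne1, cyclin E1, had 24.1, 43.1 and 0 CPM in P17 and 0.0442, 4.23, 0, 0.617 and 0.956 CPM in P18 (8.18 ± 3.42, edgeR adjusted p = 0.917). For Exo1 and Ccne1 the P17 sum of TENA2560 lay within the P18 range and the other P17 sums above it. Of the 53 S phase members 50 were fitted higher, 6 were higher and 0 lower at an unadjusted p below 0.05, and 18 were higher than P18 in 3 of 3 animals, as were 3.68% of all genes.

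Genes of mitosis showed the same division between animals in part. Mki67, the Ki-67 antigen of dividing cells, had 23.1, 20.1 and 20.0 CPM in P17 sums, against 0.192, 0.0625, 0.497, 3.19 and 0.367 CPM in P18 sums (5.58 ± 2.13, edgeR adjusted p = 0.905). It averaged 21.1 ± 1.77 CPM in P17 (SD, n = 3) and 0.862 ± 1.31 CPM in P18 (SD, n = 5), and every P17 sum lay above every P18 sum. Top2a, topoisomerase II alpha, had 16.5, 49.6 and 3.20 CPM in P17 and 0.825, 2.62, 0.0178, 1.35 and 1.56 CPM in P18 (5.00 ± 1.96, edgeR adjusted p = 0.905), again without overlap. Cdk1 had 58.8, 57.2 and 18.5 CPM in P17 and 2.23, 6.87, 0, 5.88 and 11.7 CPM in P18 (4.19 ± 2.24), without overlap. The promoters of Cdk1, Top2a and Mki67 are those printed above.

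Ccna2, cyclin A2, had 29.8, 61.9 and 4.34 CPM in P17 and 2.62, 3.12, 3.85, 4.17 and 5.50 CPM in P18 (2.52 ± 1.39), with TENA2560 inside the P18 range. Ccnb1, cyclin B1, had 13.9, 13.1 and 0 CPM in P17 and 0.987, 1.87, 0.124, 0.992 and 0.978 CPM in P18 (3.34 ± 2.54). TENA2560 thus held Mki67 and Cdk1 in P17 at levels above P18 and had no count of Ccnb1. Kif23, a kinesin of cytokinesis, had 4.66, 0.642 and 5.48 CPM in P17 and at most 0.0888 CPM in any P18 sum (6.44 ± 2.26). Its value in TENA2524 came from R2 alone, the pool without Epcam counts. Kif18b, another kinesin, had 54 counts in P17 and 0 in P18, at least 6.82 higher on the log2 scale against 3 counts over P18. It stood at 10.1 CPM in R9 of TENA2560, 0.0891 CPM in R1 of TENA2524 and 0 in every other P17 pool. The spindle checkpoint kinase gene Ttk had 16 and 0 counts (at least 5.06). Ttk was found in R5 and R7 of TENA2517 (0.825 and 1.78 CPM) and R9 of TENA2560 (0.191 CPM), and not in TENA2524. Of the 75 members 68 were fitted higher, and 15 were higher and 0 lower at an unadjusted p below 0.05. Higher in 3 of 3 animals were 19 of them, and 3.68% of all genes. The tubulin genes at the highest levels in the list had fitted values near 0: Tubb4b averaged 199 CPM in P17 and 299 CPM in P18 (-0.44 ± 0.81), and Tuba1b 295 and 253 CPM (0.14 ± 0.57).

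**Figure D2:**
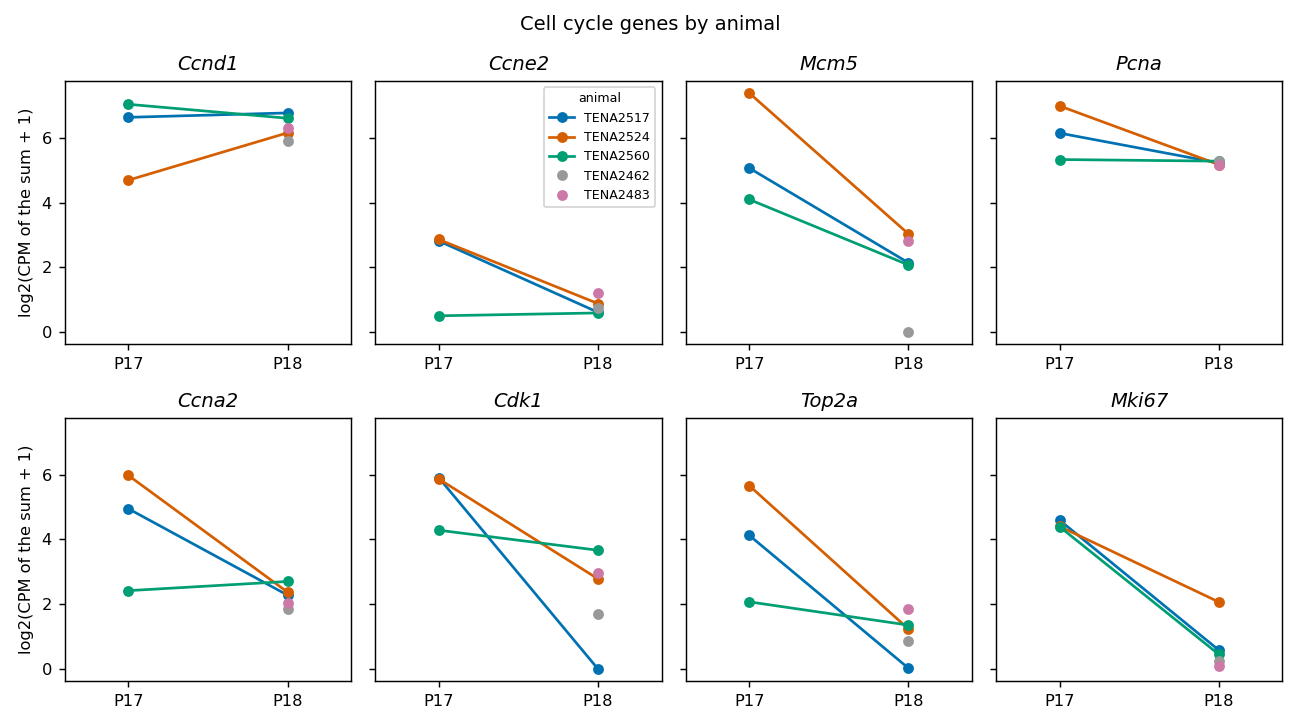
Log2(CPM of the sum + 1) of 8 cell cycle genes in each animal, P17 at the left and P18 at the right of each panel, with lines joining the sums of an animal. Mki67, Top2a, Cdk1 and Mcm5 lie higher in P17 in 3 of 3 animals, whereas Ccna2, Ccne2 and Ccnd1 do not.

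Summed over a list the same split appears. The 53 S phase genes added up to 1496, 2810 and 424 CPM in P17 sums, against 316, 394, 344, 362 and 332 CPM in P18 sums. The 75 mitosis and G2/M genes added up to 1590, 2028 and 1015 CPM in P17, against 912, 919, 882, 1086 and 874 CPM in P18. The S phase totals did not overlap, and for mitosis and G2/M the P17 total of TENA2560 fell inside the P18 range. Within animals the median difference of S phase members on the log2(CPM + 1) scale was 1.91 in TENA2517, 2.47 in TENA2524 and -0.09 in TENA2560, and that of mitosis and G2/M members 1.77, 0.95 and 0.06. With 3 animals holding both populations an exact two-sided sign-flip permutation test cannot give a p below 0.25.

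In single pools the transcripts were held by some P17 pools and not by others. Mki67 was at 29.1, 0, 56.7 and 44.2 CPM in pools R5 to R8 of TENA2517, at 25.1, 0 and 0 CPM in R1 to R3 of TENA2524, and at 0, 90.5, 0 and 0 CPM in R8 to R11 of TENA2560. The Mki67 of TENA2560 thus came from R9 alone. P18 pools had a median of 0 and a highest value of 19.7 CPM of Mki67. Cdk1 was at 96.5, 8.01, 202 and 2.21 CPM in the pools of TENA2517, at 71.5, 0 and 0 CPM in those of TENA2524 and at 0, 83.6, 0 and 0 CPM in those of TENA2560, against a median of 0 and a highest value of 152 CPM in P18 pools. In R9 of TENA2560 Mcm5 stood at 73.1 CPM, while Rrm2 stood at 3.44 and Ccnb1 at 0 CPM. Of Mki67, Top2a, Ccnb1, Cdk1 and Mcm5, at least 3 reached 10 CPM in 4 of 11 P17 pools (2 of TENA2517, 1 of TENA2524 and 1 of TENA2560) and in 3 of 55 P18 pools. None of the 5 genes reached it in 3 of 11 P17 pools and in 43 of 55 P18 pools. All pools with at least 3 of these genes, in P17 and in P18, also held Epcam and Krt8 at 10 CPM, and 0 held Ptprc. That sets them apart little, since 10 of 11 P17 pools and 55 of 55 P18 pools held Epcam and Krt8. Ptprc reached 10 CPM in 0 pools of either population. Which of the 5 cells of a pool held the cycle transcripts cannot be told. Transcripts of cycling cells were thus found in some P17 pools and some P18 pools, and not in P17 as a whole.

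**Figure D3:**
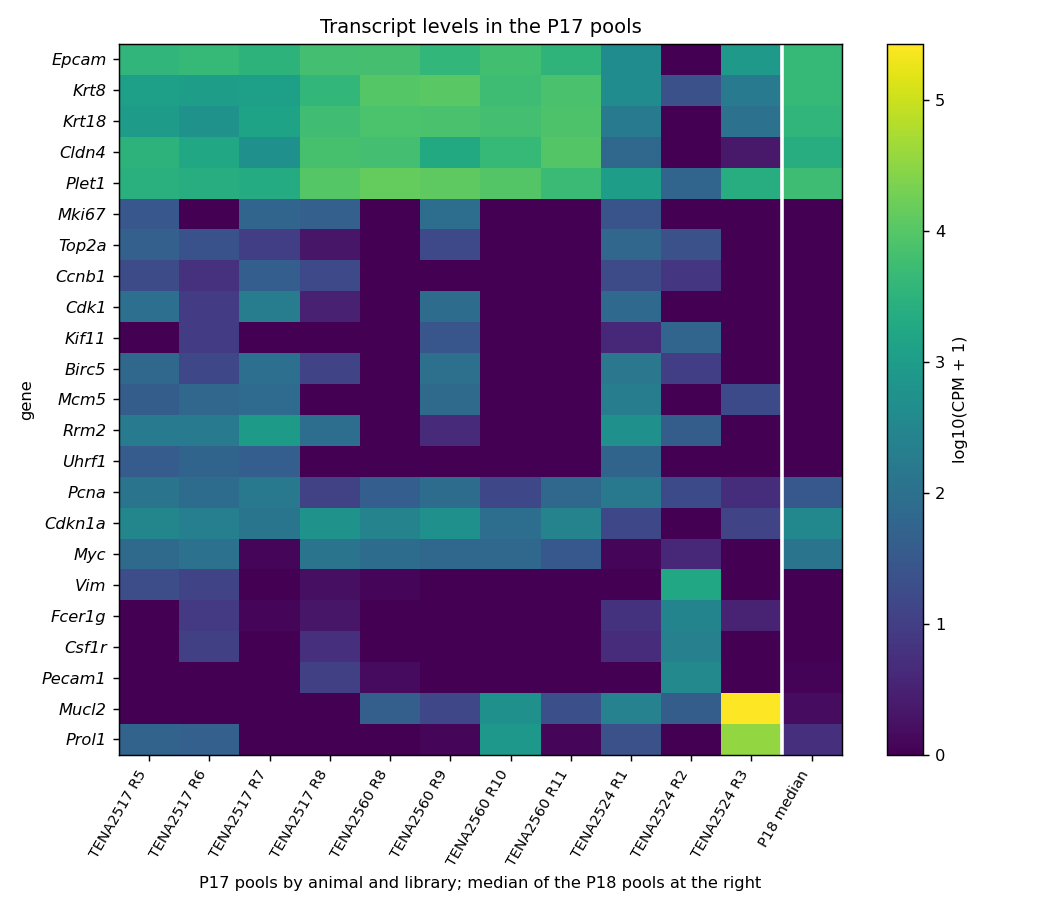
Log10(CPM + 1) of 23 genes in each of the 11 P17 pools, with the P18 median at the right. Mki67 is seen in 3 pools of TENA2517, in R1 of TENA2524 and in R9 of TENA2560, and R2 of TENA2524 lacks Epcam and holds Vim.

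The S phase list added up to 56.4 to 4673 CPM in P17 pools (median 1068) and to 129 to 754 CPM in P18 pools (median 310), and 6 of 11 P17 pools lay above every P18 pool. Among them is R2 of TENA2524, at 4673 CPM. The mitosis and G2/M list added up to 248 to 3160 CPM in P17 pools (median 1388) and to 499 to 3664 CPM in P18 pools (median 805), and 0 of 11 P17 pools lay above every P18 pool. A set of 3 loci that resemble ribosomal RNA took 0.945 to 53.0% of counts in P17 pools (median 12.3%) and 1.35 to 59.6% in P18 pools (median 41.8%). On the medians this lowers the CPM of other genes more in P18. Within animals the medians were closer, at 30.2% in P17 against 37.2% in P18 of TENA2517. They were 41.4 against 53.1% in TENA2524 and 12.0 against 17.0% in TENA2560. With these loci left out of the totals, 5 of 11 P17 pools lay above every P18 pool for S phase and 2 of 11 for mitosis and G2/M, with medians of 1217 against 475 CPM and of 2322 against 1343 CPM.

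**Figure D4:**
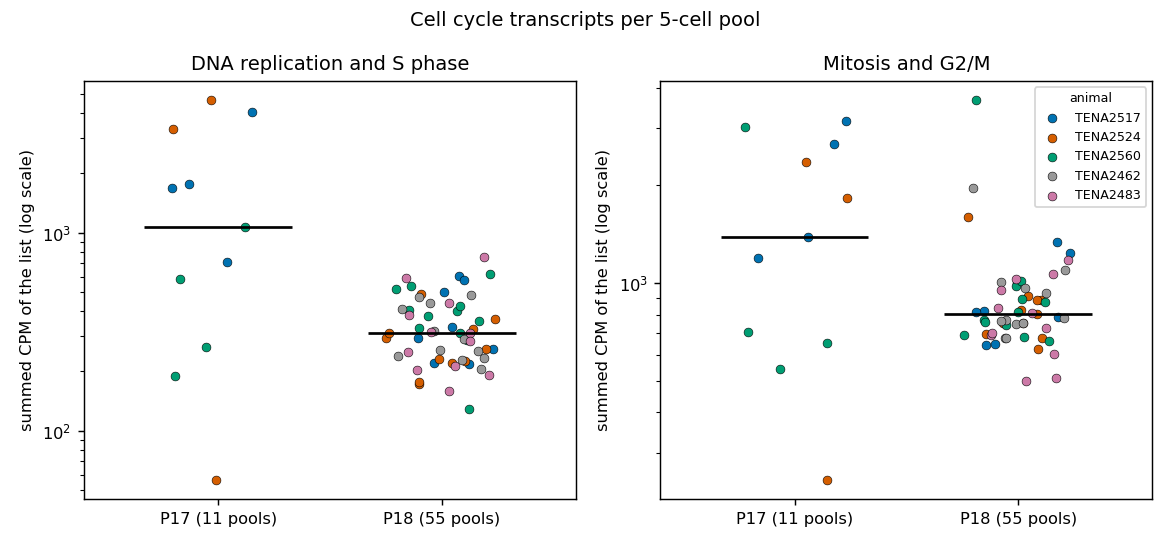
Summed CPM of the S phase list and of the mitosis and G2/M list in every pool of P17 (left) and P18 (right) on a log scale, coloured by animal, with bars at the medians. The medians are 1068 CPM in P17 and 310 CPM in P18 for S phase, and 1388 CPM and 805 CPM for mitosis and G2/M.

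Inhibitors of the cycle and p53 targets tended to lie lower in P17. Of 30 members 5 were fitted higher and 25 lower (median -0.58, against -0.40 for all genes), 1 was higher and 2 lower at an unadjusted p below 0.05, and 14 were lower in 3 of 3 animals, as were 17.5% of all genes. Cdkn1a, the gene of p21, had 223, 15.8 and 232 CPM in P17 sums, against 325, 471, 536, 403 and 712 CPM in P18 sums (-1.59 ± 1.14). Every P17 sum lay below every P18 sum, as in 7 of the 30 members and in 7.31% of all genes. Trp53inp1, a p53-induced stress gene, had 4.70, 0.357 and 0 CPM in P17 and 9.25 to 17.5 CPM in P18 (-4.22 ± 1.94, edgeR adjusted p = 0.959). Eda2r, a p53-induced receptor, had 0 counts in P17 and 416 in P18 (log2 fold change -4.47 or lower against 3 counts over P17). Cdkn2a, whose transcripts encode p16 and p19Arf, had 4.56, 0 and 0 CPM in P17 and 0.958, 0, 0, 0.907 and 0 CPM in P18, so that its P17 counts came from 1 animal.

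Epithelial genes were mostly fitted lower in P17, with P17 of TENA2560 among the P18 sums. Of 32 members 4 were fitted higher and 28 lower (median -0.76), with 0 higher and 1 lower at an unadjusted p below 0.05. That gene was Cdh3, P-cadherin, with 1 count in P17 and 370 in P18. Their sum was 13643, 4439 and 33048 CPM in P17 and 28806, 25757, 28400, 16778 and 33125 CPM in P18. Krt8 had 1258, 414 and 6554 CPM in P17 and 5242, 3775, 4863, 1925 and 4715 CPM in P18 (fitted log2 fold change -0.74), with TENA2560 above every P18 sum and the others below. Cdh1, E-cadherin, had 60.9, 49.7 and 145 CPM in P17 and 216, 163, 113, 105 and 163 CPM in P18 (-0.81 ± 1.56). F11r, a tight junction adhesion molecule, was at -1.37 ± 1.15 and the epithelial ETS factor Ehf at -0.90 ± 0.81.

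Mesenchymal transcripts were scarce in both. Vim had 6.45, 42.7 and 0.0422 CPM in P17 sums and 5.01, 13.0, 16.9, 3.02 and 7.86 CPM in P18 sums (1.95 ± 1.59), and its fitted value was -3.96 without R2 and R3 of TENA2524. Tnc, the driver of the colour switch, had 0 counts in P17 and 583 in P18 (-4.96 or lower), with P18 levels between 0 and 4.52 CPM. It reached 1 CPM in 0 of 11 P17 pools and in 9 of 55 P18 pools. Of these P18 pools 6 came from TENA2462, which gave no P17, and 1 each from TENA2517, TENA2524 and TENA2560. In the shared animals Tnc was thus rare in P18 too, and no loss in P17 is read from the bound. Cdh2 had 0 counts in P17 and 27 in P18 (-0.52 or lower), and the collagen gene Col1a1 had 4 and 148. The mesenchymal list had a median of -1.96 (-1.39 with bounds) and the basal list one of -3.67 (-1.90 with bounds). In P17 13 of 26 mesenchymal and 6 of 14 basal members had 0 counts. The within-animal medians on the log2(CPM + 1) scale were -0.01, 0 and 0 for mesenchymal and -1.09, -0.51 and 0 for basal members. The basal total in P18 was highest in TENA2462 (663 CPM), which gave no P17. No direction is read from the mesenchymal list. Krt17, a keratin of basal and wounded epithelium named after its values were seen, had 3 counts in P17 and 20684 in P18, of which 260 CPM stood in TENA2462 and 3.89 to 20.8 CPM in the others.

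Mitochondrially encoded transcripts were higher in P17 in every fitted value, and so were most genes of ribosome biogenesis. Of 13 mitochondrial genes 13 were fitted higher (median 0.93), 3 at an unadjusted p below 0.05. Higher in 3 of 3 animals were 12 of them, and 3.68% of all genes. mt-Cytb, cytochrome b of complex III, had 9538, 13024 and 13191 CPM in P17 sums and 3674, 5099, 6046, 4719 and 6554 CPM in P18 sums (1.10 ± 0.44, edgeR adjusted p = 0.905), without overlap. The complex I genes mt-Nd4 and mt-Nd1 were at 0.93 ± 0.42 and 0.91 ± 0.44. Of 30 genes of ribosome biogenesis and Myc targets 23 were fitted higher and 7 lower (median 0.77), 1 at an unadjusted p below 0.05. That gene was Ranbp1, a partner of the Ran GTPase of nuclear transport, with 237, 216 and 122 CPM in P17 and 107, 85.9, 95.2, 93.0 and 88.3 CPM in P18 (1.06 ± 0.49), without overlap. Nme1, a nucleoside diphosphate kinase, was at 0.89 ± 0.68 and the nucleolar gene Npm1 at 0.67 ± 0.52. Without library R1 of TENA2524 the median of the list was 0.11, with Ranbp1 at 0.36, Nme1 at 0.45 and Npm1 at 0.15. A high share of mitochondrial counts also marks libraries that failed: it was 12.6 to 67.1% in the 32 failed P17 libraries with at least 100000 counts. The part of RNA quality in the differences between P17 and P18 was not tested.

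**Figure D5:**
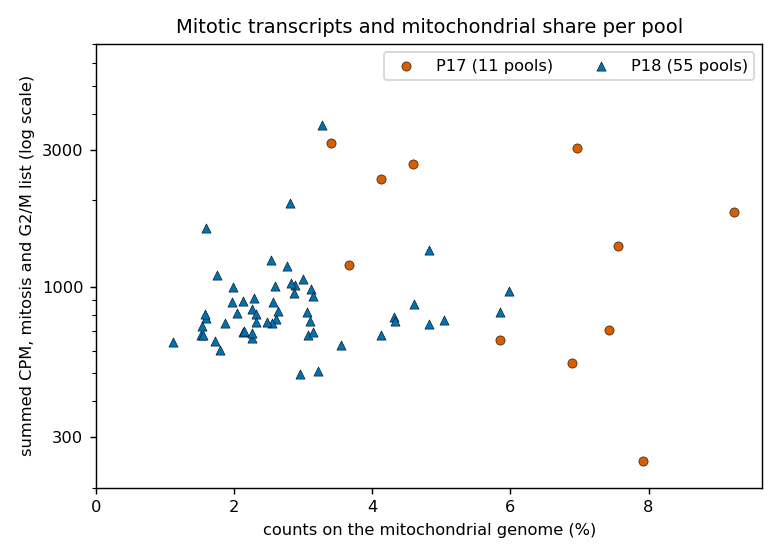
Summed CPM of the mitosis and G2/M list against the share of mitochondrially encoded counts in every P17 and P18 pool. The P17 pools lie at 3.40 to 9.24% and the P18 pools at 1.12 to 5.98% of counts. R7 of TENA2517, with the highest mitotic sum of the P17 pools (3160 CPM), has the lowest mitochondrial share among them (3.40%). R9 of TENA2560, with the next highest sum (3033 CPM), has 6.97%, above every P18 pool.

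Several markers of macrophages stood high in 1 P17 library and at low levels in some others. Of 16 macrophage markers 13 were fitted higher and 3 lower (median 3.66, 4.14 with bounds), with 3 higher at an unadjusted p below 0.05. Ms4a7 had 235 counts in P17 and 0 in P18 (at least 8.94 higher), the F4/80 gene Adgre1 49 and 0 (at least 6.68), and the Fc receptor chain gene Fcer1g was at 6.64 ± 2.54. In R2 of TENA2524 Ms4a7 reached 687 CPM, Fcer1g 279 CPM and Adgre1 112 CPM, against at most 1.55, 7.44 and 2.29 CPM in the other P17 pools. Fcer1g reached 1 CPM in 5 of 11 P17 pools and 0 of 55 P18 pools, and C1qa in 4 of 11 and 1 of 55. Csf1r did so in 4 of 11 and 19 of 55. Without R2 and R3 of TENA2524 the fitted value was 5.88 for Fcer1g, 3.30 for Ms4a7 and 3.39 for Adgre1. Ptprc had 7 counts in P17, all in R6 of TENA2517, and 0 in P18. The summed level of the list was 36.6, 361 and 1158 CPM in P17 and 702, 857, 1511, 1046 and 1331 CPM in P18, most of it Cd14, which averaged 483 CPM in P17 and 1067 CPM in P18. Without R2 and R3 of TENA2524 the fitted medians were 2.16 for S phase and 2.64 for mitosis and G2/M, and Mki67 stood at 5.66. The totals of 2 further marker lists were also high in R2 of TENA2524, each almost wholly through a single gene. Lymphocyte markers added up to 680.5 CPM there, all of it Il2rb, an interleukin receptor chain, against at most 7.26 CPM in any P18 pool. Endothelial and pericyte markers added up to 365 CPM there, of which Pecam1 gave 362 CPM, against at most 34.8 CPM in any P18 pool. No kind of cell is read from either total. Members of these lists were so sparse that placing genes with 0 counts at their bound changed the sign of some medians, and no direction is read from them. The median was -0.93 for lymphocyte markers (0.41 with bounds), -1.34 for endothelial and pericyte (1.65), -1.25 for neutrophil (-2.10), -0.78 for fibroblast (-1.26), -2.38 for erythroid (-1.07) and -1.09 for adipocyte markers (-1.41). At an unadjusted p below 0.05 the lymphocyte list had Il2rb higher, with 224 counts in P17 and 2 in P18 (log2 ratio 9.45, interval 7.58 to 12.51), and the neutrophil list had Camp higher, with 19 and 0 counts (at least 5.31). Members with 0 counts numbered 13 in P17 and 7 in P18 of 16 lymphocyte markers, 7 and 5 of 10 neutrophil, 9 and 4 of 15 fibroblast, 8 and 4 of 16 endothelial and pericyte, 3 and 1 of 8 erythroid, and 6 and 3 of 8 adipocyte markers. Cd3e, Lum and Cdh5 were at 0 counts in both populations, and Csf3r and Dcn in P17.

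P17 was also set against P22 and P09, and S phase members were again mostly fitted higher. P22 cells are double-positive and high for EpCAM, and P09 cells are labelled high for GFP and medium for EpCAM, and both comparisons use the same 3 P17 sums. edgeR called 0 genes against P22 (0.0%; 1688 at an unadjusted p below 0.05, 5.0%) and 0 against P09 (0.0%; 1597, 4.73%), where DESeq2 called 2760 and 2553 and limma-voom 134 and 123. The S phase median was 2.22 against P22 and 1.59 against P09, with 50 and 47 of 53 members fitted higher, and the mitosis and G2/M median 1.64 and 0.59, with 65 and 56 of 75. Mki67 was at 5.08 ± 2.28 against P22 and at 1.52 ± 1.96 against P09, Rrm2 at 7.03 ± 2.53 and 5.26 ± 2.49. Of the 13 mitochondrial genes 12 were higher at an unadjusted p below 0.05 against P22 (1.15% of all genes, and 3.85% lower) and 13 against P09 (1.15%, and 3.58% lower), with medians of 1.58 and 2.07. The S phase list totalled 1577 ± 1195 CPM in P17 (SD, n = 3), 360 ± 48.6 CPM in P22 (n = 5) and 483 ± 81.3 CPM in P09 (n = 5). Among the other populations of the line, not tested against P17, it averaged 398 CPM in P16, 407 CPM in P10 and 450 CPM in P05, and 1862 ± 962 CPM in P15 (SD, n = 3). The mitosis and G2/M list totalled 1545 ± 508 CPM in P17 and 3064 ± 2036 CPM in P15 (SD, n = 3 each), which was sorted as GFP-positive without EpCAM. Macrophage markers added up to 519 ± 577 CPM in P17 and 13149 ± 11080 CPM in P15. At least 3 of the 5 cycle genes reached 10 CPM in 4 of 11 P17 pools, 4 of 50 P22 pools and 8 of 48 P09 pools.

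Since no gene was called, the 5 with the smallest unadjusted p in each direction are given as values. Those fitted higher rested on few counts. Gm43061 had 117 counts in P17 and 0 in P18 (3.70, 0 and 0.211 CPM in P17, at least 7.93 higher), and Xylt1, a xylosyltransferase of proteoglycan synthesis, 10 and 2 (log2 ratio 4.97, interval 2.74 to 8.20). B230217C12Rik was found in P17 of TENA2560 alone (97 counts, at least 7.66) and Xkr6 in P17 of TENA2524 alone (659 counts, at least 10.43), and the other was E2f7. Those fitted lower were absent or nearly so from P17. Slc5a1, the sodium-glucose transporter SGLT1, had 0 counts in P17 and 5465 in P18 (-8.18 or lower), with 4.61 to 25.4 CPM in P18 sums. Mef2a, a MADS-box transcription factor, had 2 and 3676 counts (log2 ratio -8.20, interval -11.24 to -6.34), Tmem35a 0 and 2062 (-6.78 or lower), Sh3d19 1 and 1479 (-7.88, interval -13.19 to -5.40) and Tmem231, a gene of the ciliary transition zone, 0 and 1251 (-6.06 or lower).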

How the data were processed

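RNA-seq counts per gene were used as the authors deposited them, whole-number read counts with no normalization, for wells of 5 sorted cells. Per the submitters' processing notes, STAR, featureCounts, Subread and SAMtools were used with build mm10. Their versions and settings, strand handling and the rule by which libraries passed quality control are not stated in the labels, so reads of genes that overlap on opposite strands may be shared. All 55450 gene identifiers were matched to GENCODE M21 on GRCm38, and 108 symbols belong to several identifiers.

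For each animal and population the counts of its libraries that passed were added up (43 sums of the Tnc and Cdh2 lines). They were fitted jointly in edgeR 4.0.16 under R 4.3.3 (TMM factors of 0.570 to 2.53, genes kept with filterByExpr by population, quasi-likelihood F test with robust dispersion, animal as block, 24 residual degrees of freedom), with Benjamini-Hochberg adjustment over the 33768 genes tested and a threshold of 0.05. The fitting code was also run on simulated counts of abundant genes without animal effects. That run checks the code and does not measure the power of the test in these pools. The block follows from the labels, since P17 and P18 of TENA2517, TENA2524 and TENA2560 come from the same animals. TENA2462 and TENA2483 gave no P17 sum, and enter through the shared estimates. Animals of the Cdh2 line enter through the shared estimates and the filter on counts. With the Tnc line only, 23754 genes were tested and 0 were called against P18. The SE of a fold is its absolute value divided by the square root of its F statistic, and not an error estimated for the coefficient. It is a rough guide where counts are near 0. CPM of a sum is per 1000000 counts after TMM scaling, CPM of a pool is per 1000000 counts of that library, and within-animal differences use a pseudocount of 1. Folds against 0 counts are bounds that put 3 counts in the population, and those against 1 to 3 counts are a ratio of pooled counts with a 95% exact binomial interval. Both cover counting error only, because reads without molecular identifiers are not independent molecules. DESeq2 1.42.0 and limma 3.58.1 (voom) were alternatives among 33 other settings, which also left out each P17 library and each animal.

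The populations compared, the gene lists and the tests were chosen with earlier results of these data known. Named genes are the 5 with the smallest p in each direction (none being called), the 2 to 4 members of each described list with the smallest p, and a fixed panel of sorting, driver and cell cycle genes. Other genes named were chosen after their values were seen. Levels are not length-scaled and are compared within a gene. Libraries that failed enter no comparison, apart from the setting that adds them.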

Additional observations from a re-analysis of the deposited data

Results flagged for a closer look

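In the P18 animals, 7 of 60 groups of values tested had a highest sample far from the others by Dixon's criterion, which chance alone meets in about 1 in 20 groups. For Mki67 the animal was TENA2524, at 3.19 CPM where the other P18 sums held 0.0625 to 0.497 CPM. For Ccne1 it was TENA2483 at 4.23 CPM, and for Exo1 TENA2524 at 0.230 CPM. The highest P18 sums of E2f7 (0.0208 CPM in TENA2483), Xylt1 (0.0417 CPM in TENA2483) and Fcer1g (0.0726 CPM in TENA2524) rest on 1, 2 and 6 counts in all of P18. The mitosis and G2/M total was 1086 CPM in TENA2524, where the other P18 sums held 874 to 919 CPM.

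Libraries of P17 that failed quality control also held transcripts of the cell cycle. Of these 37 libraries Mki67 reached 10 CPM in 3, Top2a in 5, Ccnb1 in 2, Cdk1 in 3 and Mcm5 in 2. In the 17 empty wells Cdk1 reached that level in 1 and each of the other 4 genes in 0. Library R1 of TENA2517 held 25.8 CPM of Top2a, 86.7 CPM of Cdk1 and 125 CPM of Mcm5, with 12.7% of its 4569935 counts from mitochondrially encoded genes. Library R12 of TENA2524 held 87.6 CPM of Top2a with 48.2% of its counts from mitochondrially encoded genes.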

How the results depend on the processing

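The count of 0 genes against P18 became 1913 with DESeq2 (256 higher, 1657 lower), 111 with limma-voom (3 and 108) and 24 with the failed libraries added (24 higher). Against P22 it became 2760 with DESeq2 (330 and 2430), 134 with limma-voom (13 and 121), 32 with failed libraries (31 and 1) and 1 with libraries thinned to the smallest total. Against P09 it became 2553 with DESeq2 (384 and 2169), 123 with limma-voom (18 and 105), 34 with failed libraries, 12 after thinning (11 and 1), 1 with equal weight of libraries and 1 with genes filtered on P17 and P18 sums alone, a setting chosen after seeing the data. Leaving out libraries or animals in turn gave 0 to 8 against P09 (8 without R1 of TENA2524). The mitosis and G2/M median was 1.33 with limma-voom, 1.64 with P17 and P18 alone and 1.30 to 3.09 over the left-out libraries and animals, lowest without TENA2517. Without R1 of TENA2524 it was 1.64, and the S phase median 1.16. The cause of these moves was not tested.

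Dropping the replicate block, which pairs P17 and P18 of an animal, left 0 genes called (2164 at an unadjusted p below 0.05), with medians of 2.38 for S phase and 2.38 for mitosis and G2/M, and Ccnd1 at 0.0371. Genes near 0 or carried by 1 library changed sign. Ccnd1 was at 0.0602 with RLE scaling, 0.0603 with DESeq2, 0.0196 with the Tnc line alone, 0.0718 after thinning, 0.0403 with the filter on P17 and P18 sums, and -0.33 to 0.44 over the left-out libraries and animals (0.0346 without R8 of TENA2517 and 0.0148 without R9 of TENA2560). Vim was at -1.34 with limma-voom, -1.23 with P17 and P18 alone, -3.96 without R2 and R3 of TENA2524 (also chosen after seeing the data) and -4.04 to 4.41 over the left-out ones (-3.05 without TENA2524 and 2.99 without TENA2560). Over these, Krt8 ranged from -2.45 to 0.0209, Ptprc from -0.77 to 4.73 (-0.89 after thinning), Col1a1 from -4.12 to 0.0257 (3.87 with failed libraries) and Cdkn2a from -8.47 to 10.50. Cdh2 was at 0.0872 with limma-voom and 8.04 with failed libraries. RLE scaling moved the median of all genes to -0.25 and limma-voom to 0.11, from -0.40.

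With 11 pools in 3 animals, the SE of the fitted log2 fold change was 2.13 for Mki67, 1.96 for Top2a and 2.24 for Cdk1, and the fitted values of a list's members rest on the same few libraries.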

Other observations

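Outside the cell cycle most lists lay below the median of all genes in P17 against P18: of the 29 lists, 21 had a median below 0 and 20 one below -0.40, with 0 of their genes called by edgeR. Antigen presentation by MHC class I was among them, with 2 of 14 members fitted higher and 12 lower (median -1.06). Of the 14, 10 were lower in 3 of 3 animals, as were 17.5% of all genes. B2m, the light chain of MHC class I, had 293, 173 and 1186 CPM in the P17 sums of TENA2517, TENA2524 and TENA2560, against 845, 1360.2, 2146, 2118 and 1236 CPM in P18 sums (-1.88 ± 0.71). Of 31 identifiers in the hypoxia and glycolysis list 4 were fitted higher and 27 lower (median -0.78), and the prolyl hydroxylase subunit gene P4ha1 was at -4.09 ± 1.58. In the interferon list 8 of 30 were fitted higher and 22 lower (median -1.08), but the animals disagreed: the within-animal median was -3.02 in TENA2517, 0.49 in TENA2524 and -1.26 in TENA2560. The fitted interferon median was -0.18 without TENA2517, -0.34 without TENA2560, -2.49 without TENA2524 and -3.21 without its library R1. Among chemokine and inflammation genes 5 were fitted higher and 22 lower (median -2.07, -1.66 with bounds).

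Milk genes differed by animal. Csn3, kappa-casein, had 36.4, 3802 and 14649.5 CPM in P17 sums and 7275, 7106, 11841, 3251 and 8905 CPM in P18 sums, so that P17 of TENA2560 lay above and P17 of TENA2517 far below every P18 sum. Csn1s1, alpha-casein, had 0 counts in P17 and 7296 in P18 (-8.60 or lower). Klf2, a transcription factor of the immediate early list, had 0 and 2044 counts (-6.77 or lower), with 2.46 to 9.36 CPM in P18 sums. Lists with a median near 0 were the secretory and ER chaperone list (0.21, 14 of 20 fitted higher) and cholesterol synthesis (0.29, 13 of 24). The heat shock list was at -0.37, the integrated stress response at -0.50, apoptosis at -0.63 and the EGF receptor and Ras feedback list at -0.81.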
